A study of Callithrix jacchus with 39 samples.

Results

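Gene expression was compared between 3 naive and 3 primed libraries of the common marmoset (Callithrix jacchus) embryonic stem cell (ESC) line titled N40. The 6 libraries were taken by their titles from the 39 of the series. The primed libraries are titled N40_P_Tg and the naive libraries N40_N_TgOFF, and the labels give the cell state as primed or naive ESC. The labels do not define Tg, do not describe the culture of either state, and name no genotype or agent. Primed libraries titled No.40 and DSY127, without Tg, are also in the series. The labels do not say whether No.40 and N40 are the same line. For some genes primed N40 stood far below or far above other primed groups. The means of those groups are given for part of these genes only. Whether the 3 libraries of each group are separate cultures is not stated, and the p-values therefore rest on library-to-library spread that could be technical. Another line, DSY-c2, has 3 primed libraries titled Tg and 3 naive libraries titled TgON, and its naive change was compared with that of N40. The cell line and the TgON or TgOFF label cannot be told apart in that comparison.

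Pluripotent stem cells can be kept in a naive state, close to the epiblast before implantation, or in a primed state, close to the epiblast after implantation. The naive state is known for LIF and STAT3 signalling, mitochondrial respiration and KLF factors, and the primed state for FGF and activin signalling and for an epithelium resting on a basement membrane. Many epithelial cells carry a cilium built from a microtubule axoneme, and the epiblast borders the primitive endoderm, whose regulators include GATA and HNF4 factors.

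Total counts were 75 to 78.7 M (mega, 1e6) in the primed and 72.3 to 75.3 M in the naive libraries. Across genes, libraries of a group correlated at r of 0.978 to 0.987 in naive and 0.979 to 0.986 in primed cells, and libraries of different groups at 0.877 to 0.89. Levels are counts per 1e6 counts (CPM) in replicates 1, 2 and 3 or as a mean ± SD over n = 3 libraries, and they are not scaled to gene length. Pluripotency factors were well detected in both groups, and markers of other cells were not all low. POU5F1, the central pluripotency factor, stood at 1500, 1590 and 1660 CPM in the primed libraries and 1450, 1460 and 1530 CPM in the naive ones, with overlap between groups, and NANOG at 477, 551 and 576 CPM (primed) and 978, 897 and 998 CPM (naive) without overlap. Of defining markers of other cells, the mesoderm gene TBXT was at 2.43, 3.75 and 4.82 CPM in the primed libraries and 1.51, 0.792 and 0.807 CPM in the naive ones, and the neural gene PAX6 at most at 1.24 CPM. In primed cells the fibroblast collagen COL1A1 stood at 616 ± 136 CPM. In naive cells COL1A1 was at 177 ± 78.8, the collagens COL3A1 and COL1A2 at 78.8 ± 64.5 and 45.6 ± 29.3, the trophoblast keratin KRT7 at 62.8 ± 16.6 and the endoderm factor GATA6 at 25.5 ± 13.1 CPM. Naive replicate 1 stood apart from the other naive libraries. Its mean log2 CPM over 14 fibroblast marker genes was 2.79, against 1.62 and 1.78 in naive replicates 2 and 3 and 1.74 to 2.04 in primed libraries. Over the 36 endoderm genes tested it was 1.97 against 1.25 and 1.2, over 23 germ cell markers 2.7 against 1.88 and 2.01, and over 13 trophectoderm markers 1.88 against 1.09 and 1.18. The fibroblast gene DCN was at 0.297 CPM in it, and at no more than 0.0565 CPM in any other N40 library. These genes were not particular to naive libraries. Primed No.40 and DSY127 libraries averaged 148 and 205 CPM for COL3A1, 335 and 172 CPM for COL1A2 and 8.07 and 67.6 CPM for DCN, all above naive N40. Primed DSY-c2 libraries averaged 3.33, 21.1 and 0.764 CPM for the same genes.

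Of 17957 genes tested, 10952 (61.0%) differed between naive and primed N40 cells at an edgeR adjusted p under 0.05, 5794 (32.3%) higher and 5158 (28.7%) lower in naive cells. Past a fold threshold of 2 there were 4266 (23.8%), 1657 (9.23%) higher and 2609 (14.5%) lower. Gene symbols cover 11562 tested genes, of which 35.4% were higher (9.31% past 2-fold) and 31.9% lower (16.2% past 2-fold), with a median log2 fold change of 0.057. The 3 naive and 3 primed libraries did not overlap for 65.4% of all genes and 71.0% of those with a symbol. These shares are the background for every list below. Many genes named below were picked as called members with the largest changes, so their lack of overlap adds no separate support.

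Large changes included genes that went from near absence to high levels or the reverse, and NLRP9, which started from a low level. NLRP9, of a family of NACHT and leucine-rich repeat proteins that includes maternal-effect genes, was at 8.13, 5.02 and 6.86 CPM in the primed libraries and 1540, 996 and 1210 CPM in the naive ones. It rose by 7.55 ± 0.3 (log2 ± SE, edgeR adjusted p = 5.52e-11). FOXR1, a forkhead factor, was at 0.15, 0.0776 and 0.109 CPM in the primed libraries and 25.3, 21.4 and 28.8 CPM in the naive ones, a rise of 7.78 ± 0.35 (adjusted p = 7.5e-11). Both genes had counts in every primed library. BECN2, a beclin of the autophagy pathway, had no count in any primed library and 179, 144 and 195 CPM in naive libraries, at least 13255-fold higher against a floor of 3 counts over the primed group. That bound covers counting error only. OLIG3, a basic helix-loop-helix factor known from the neural tube, rose from 0.0752, 0.155 and 0.163 to 18, 25.1 and 26.4 CPM. The largest rises were picked among genes without overlap between the naive and primed libraries, so their separation followed from the choice.

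In the other direction, PGM5, a phosphoglucomutase relative that sits at adherens junctions and focal adhesions, was at 216, 269 and 204 CPM in the primed libraries and 0.149, 0.0848 and 0.101 CPM in the naive ones. It fell by 10.99 ± 0.63 on the log2 scale (adjusted p = 2.62e-09). Primed means of PGM5 elsewhere were lower, at 141 (No.40), 51.0 (DSY127) and 17.9 CPM (DSY-c2) against 230 CPM in primed N40. JAKMIP2, a coiled-coil protein that binds microtubules, was at 65.3, 55.7 and 53.6 CPM in the primed libraries and 0.386, 0.368 and 0.346 CPM in the naive ones and fell by 7.3 ± 0.35. CACNA1S, the pore of the skeletal muscle calcium channel, was at 20.3, 33.3 and 32.2 CPM (primed) and 0.163, 0.17 and 0.231 CPM (naive) and fell by 7.23 ± 0.5. The largest falls were likewise picked among genes without overlap.

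Endoderm factors did not move as a block. Of 36 endoderm genes tested, 11 rose and 9 fell, with a median of 0.54, and the counts are given by role. Among 12 transcription factors and receptors that regulate endoderm, 5 rose (41.7%, near the background) and 1 fell (8.33%). GATA6 (ENSCJAG00000020543), the factor that starts primitive endoderm, was at 0.1, 0.0518 and 0.0272 CPM in the primed libraries and 40.6, 17.5 and 18.3 CPM in the naive ones. It rose by 8.67 ± 2.06 (adjusted p = 0.00219), and by 8.07 (adjusted p = 0.00647) without naive replicate 1, its highest library. In the other primed groups GATA6 averaged 40.9 (No.40), 28.8 (DSY127) and 60.6 CPM (DSY-c2), each above the naive N40 mean of 25.5 CPM. The rise is therefore against a primed group that was low among primed groups. HNF4A (ENSCJAG00000017746), a nuclear receptor of visceral endoderm and liver, was at 0.175, 0.116 and 0.244 CPM in the primed libraries and 64.9, 58.3 and 80.2 CPM in the naive ones and rose by 8.56 ± 1.5 (adjusted p = 0.00019). Naive replicate 1 was not the highest library for HNF4A. Means of HNF4A in the other primed groups were 14.0 (No.40), 22.1 (DSY127) and 16.1 CPM (DSY-c2), against 67.8 CPM in naive N40. GATA4, a partner of GATA6 in endoderm, was at 2.93, 3.48 and 4.52 CPM in the primed libraries and 23.2, 22.9 and 23.5 CPM in the naive ones, a rise of 2.67 ± 0.49 (adjusted p = 0.000185). HNF4G, a relative of HNF4A, rose from 2.82 ± 0.778 to 8.2 ± 1.8 CPM. NR5A2, an orphan nuclear receptor that also acts on pluripotency genes, rose from 57.1 ± 11 to 136 ± 3.3 CPM. For these 5 genes, which are the called rises, the 3 naive libraries lay above the 3 primed libraries.

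Other regulators of endoderm were not called higher. FOXA2, a pioneer factor of definitive endoderm, stayed at or below 0.311 CPM in all 6 libraries. PDGFRA, a surface receptor of primitive endoderm, was at 6.89, 8.29 and 16.5 CPM in the primed libraries and 48.1, 16.7 and 20.3 CPM in the naive ones and was not called (adjusted p = 0.263, or 0.0284 with only the 6 N40 libraries), with naive replicate 1 again highest. PDGFRA means in the other primed groups were 99.0 (No.40), 58.0 (DSY127) and 97.7 CPM (DSY-c2), above the naive N40 mean of 28.4 CPM. CXCR4, a chemokine receptor of definitive endoderm, was at 3.16, 1.45 and 1.06 CPM (primed) and 5.7, 9.92 and 9.28 CPM (naive) (adjusted p = 0.0611), and was called higher with only the 6 N40 libraries, with a replicate block in them and with DESeq2 as the test. Means of CXCR4 in the other primed groups were 26.4 (No.40), 24.2 (DSY127) and 40.8 CPM (DSY-c2), above the naive N40 mean of 8.3 CPM. OTX2, a homeobox factor of anterior endoderm and of primed pluripotency, was at 16.3, 15.5 and 11.7 CPM in the primed libraries and 4.46, 1.54 and 1.56 CPM in the naive ones and fell by 2.52 ± 0.51 (adjusted p = 0.00043). Without naive replicate 1 the fall of OTX2 was larger, at -3.31. In all, 6 of the 12 regulators were not called, and SOX17 was not analysed here.

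Of 15 secreted products of liver and yolk sac endoderm, 2 were higher (13.3%) and 6 lower (40.0%), against 35.4% and 31.9% over genes with a symbol, so the share of falls was near the background. VTN, the adhesion protein vitronectin, was at 169, 213 and 232 CPM in the primed libraries and 8.97, 4.59 and 8.3 CPM in the naive ones and fell by 4.82 ± 0.23 (adjusted p = 1.39e-10). TF, the iron carrier transferrin, was at 637, 755 and 815 CPM (primed) and 149, 117 and 119 CPM (naive) and fell by 2.52 ± 0.14 (adjusted p = 7.3e-10). RBP4, the plasma carrier of retinol, was at 12.6, 15.1 and 12.8 CPM (primed) and 0.757, 0.608 and 0.591 CPM (naive) and fell by 4.37 ± 0.41 (adjusted p = 1.52e-07). Their groups were separated, while APOB, the lipoprotein scaffold, was at 18.5 ± 7.75 CPM in the primed libraries and 3.98 ± 4.22 CPM in the naive ones. APOB was called at an adjusted p of 0.0298, and the call was lost without any one of primed replicate 2 (adjusted p = 0.0514), primed replicate 3 (0.0703), naive replicate 2 (0.0865) or naive replicate 3 (0.103). Without naive replicate 1 its change was -3.66, against -2.22 with all libraries. The genes of the plasma proteins AFP and ALB had 2 or fewer counts over each group and were not tested.

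Surface proteins of absorptive epithelia, which endoderm and kidney share, held 4 rises (44.4%) and 2 falls (22.2%) among 9 genes, too few to set apart from the background. ANPEP, an aminopeptidase of the brush border, was at 178, 124 and 156 CPM in the primed libraries and 1140, 1250 and 1320 CPM in the naive ones and rose by 3.02 ± 0.3 (adjusted p = 5.75e-07). DPP4, a dipeptidyl peptidase of the same membranes, was at 1.32, 0.906 and 0.625 CPM (primed) and 13.5, 17.1 and 17.7 CPM (naive) and rose by 4.08 ± 0.34 (adjusted p = 3.74e-08). Both were separated with little spread among naive libraries. LRP2, the endocytic receptor megalin, was at 2.96, 2.04 and 0.679 CPM in the primed libraries and 210.0, 62.6 and 70.0 CPM in the naive ones, and its rise was 5.91 with and 5.03 without naive replicate 1. Other primed groups had LRP2 means of 23.7 (No.40), 121 (DSY127) and 49.7 CPM (DSY-c2). VIL1, the actin bundler villin, fell from 6.73 ± 2.06 to 1.82 ± 0.255 CPM, and CUBN, the receptor that works with megalin, was not called (adjusted p = 0.659). With naive replicate 1 left out, the endoderm genes as a whole showed 11 rises and 10 falls.

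**Figure D1:**
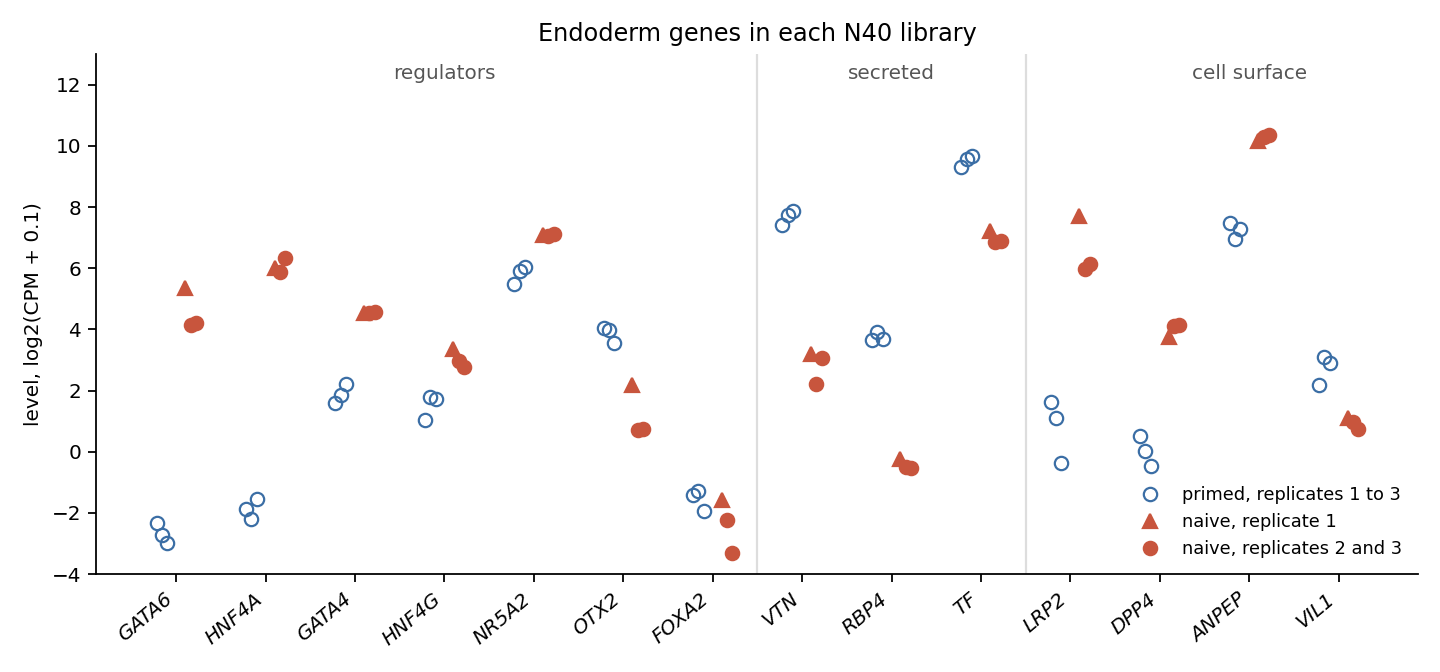
Level of 14 endoderm genes in each N40 library, as log2 of CPM plus a pseudocount of 0.1. Open blue circles are the 3 primed libraries, red triangles naive replicate 1 and red circles naive replicates 2 and 3, and vertical lines part regulators, secreted proteins and surface proteins. GATA6, HNF4A and GATA4 lie higher in every naive library, and VTN, RBP4 and TF lie lower.

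Cilium genes fell widely. Of 80 tested genes of the motile axoneme and its regulators, 54 fell (67.5%) and 5 rose, 44 of the falls past the 2-fold threshold, and the median log2 fold change was -1.64. The summed level of the list ran from 1390 to 1690 CPM in primed and from 715 to 794 CPM in naive libraries. Outer and inner dynein arms, the motors that bend the axoneme, had 13 falls among 21 genes and no rise. DNAH5, the heavy chain of the outer arm, was at 75.8, 63.3 and 74.6 CPM in the primed libraries and 9.45, 16 and 11.6 CPM in the naive ones and fell by 2.53 ± 0.28 (adjusted p = 1.03e-06). The heavy chains DNAH9 and DNAH11 were not called (adjusted p = 0.123 and 0.869), although DNAH9 was called lower without naive replicate 1 (-1.26, adjusted p = 0.000939). ZMYND10, which helps assemble dyneins in the cytoplasm, was at 47.8, 29.2 and 29.3 CPM (primed) and 2.17, 3.11 and 2.25 CPM (naive) and fell by 3.82 ± 0.3 (adjusted p = 2.34e-08). It was 1 of 4 assembly factors that fell among 6.

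The links that tie microtubule doublets together and the radial spokes had 10 falls and 1 rise among 16 genes. DRC1 (ENSCJAG00000001461), a subunit of the nexin link, was at 160.0, 69.9 and 89.5 CPM in the primed libraries and 0.238, 0.141 and 0.259 CPM in the naive ones and fell by 8.96 ± 0.6 (adjusted p = 1.05e-08). CCDC40 and CCDC39, the molecular rulers that set the spacing of arms and spokes, fell by 4.4 ± 0.32 and 2.4 ± 0.17, from 23.2 ± 1.24 to 1.1 ± 0.222 and from 22.7 ± 0.795 to 4.3 ± 0.566 CPM. The rise was RSPH3, a radial spoke protein that also anchors protein kinase A, at 21.3, 23 and 21.5 CPM in the primed libraries and 75.9, 72.5 and 85.3 CPM in the naive ones (1.83 ± 0.12, adjusted p = 2.87e-09). Genes of the central pair and of the inside of the doublets had 26 falls among 29. CFAP45, a protein inside the doublet wall, was at 146, 98.2 and 107 CPM in the primed libraries and 1.4, 0.283 and 1.66 CPM in the naive ones and fell by 6.72 ± 0.46 (adjusted p = 1.3e-08). SPAG6, of the central pair, was at 205, 128 and 161 CPM (primed) and 18.9, 21 and 19.6 CPM (naive) and fell by 3.05 ± 0.23. No naive library reached the primed range for either gene. The only rise among the central pair and doublet genes was CFAP54, a central pair protein, from 1.21 ± 0.19 to 4.26 ± 1.05 CPM (1.82 ± 0.21, adjusted p = 1.76e-06).

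Of 8 transcription factors and regulators of ciliated cells 3 rose and 1 fell, or 2 without primed replicate 1 or naive replicate 1. RFX3, a regulator of cilium genes, was at 28.1, 25.4 and 27 CPM in the primed libraries and 8.26, 9.94 and 10.2 CPM in the naive ones and fell by 1.5 ± 0.2 (adjusted p = 6.78e-06), while its relative RFX2 was not called (adjusted p = 0.52). MYB, which acts in multiciliated and in blood progenitor cells, was at 15.7, 20.5 and 19.9 CPM (primed) and 153, 179 and 204 CPM (naive) and rose by 3.26 ± 0.21 (adjusted p = 3.01e-09). FOXJ1, the main activator of motile cilia, was not analysed here. In DSY-c2, 57 of the same 80 genes fell, against a background of 32.6% for genes with a symbol, and 50 of the 54 N40 falls were among them. The share of all N40 falls that also fell in DSY-c2 is not given here. In other lists it was 22 of 23 falls for collagens, 81 of 86 for ion channels and 6 of 12 for the Hippo list. The overlap is therefore not taken as particular to cilium genes.

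Genes that build and supply any cilium, motile or not, fell by less. Of 51 tested, 32 fell (62.7%), with a median of -0.53. WDR35, a subunit of the intraflagellar transport complex that returns cargo to the cell body, was at 220.0, 216 and 236 CPM in the primed libraries and 23.9, 21.3 and 19.9 CPM in the naive ones and fell by 3.37 ± 0.17 (adjusted p = 2.13e-10). RPGRIP1L, a scaffold of the transition zone at the cilium base, was at 61.8, 64.1 and 56.3 CPM (primed) and 7.05, 7.49 and 6.34 CPM (naive) and fell by 3.12 ± 0.13 (adjusted p = 5.52e-11). IFT57 fell from 194 ± 8.73 to 55.4 ± 6.54 CPM and the kinesin subunit KIF3A, which carries cargo to the tip, from 87.3 ± 7.48 to 31.2 ± 3.25 CPM. The return motor itself, DYNC2H1, rose from 40.1 ± 3.84 to 64.7 ± 3.09 CPM (0.69 ± 0.15). The 7 rises in the list became 4 without primed replicate 2, 4 without primed replicate 3 and 3 without naive replicate 2.

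**Figure D2:**
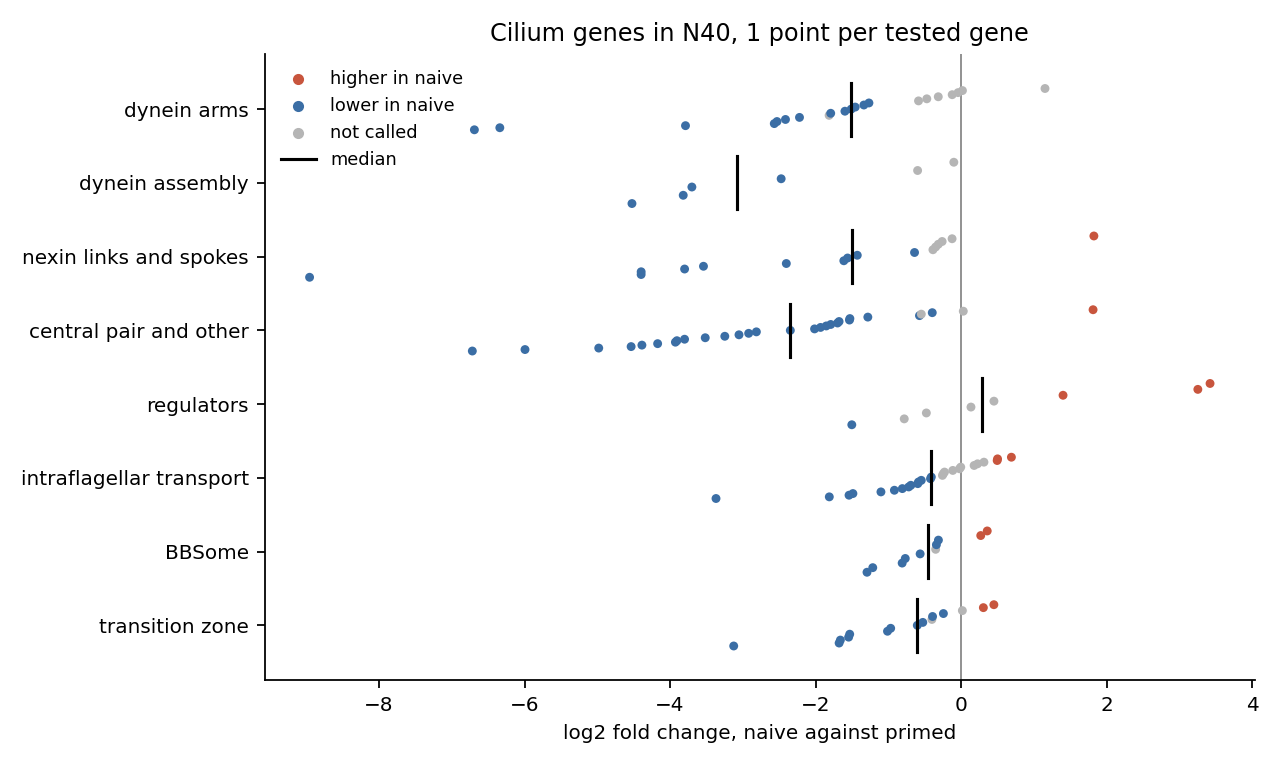
Log2 fold change of each tested cilium gene in N40, naive against primed, by role, with red points higher, blue points lower and grey points not called at an edgeR adjusted p under 0.05, and a black bar at the median. Dynein, spoke and central pair genes lie mostly left of 0, and intraflagellar transport, BBSome and transition zone genes lie nearer to 0.

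Genes of the respiratory chain and the mitochondrial ribosome rose for the most part, few of them past 2-fold, while mitochondrial carriers moved both ways. All 33 calls among 40 tested nuclear genes of the respiratory chain were rises, with a median of 0.66, and 4 passed the 2-fold threshold. Without naive replicate 2 there was also 1 fall. Only 40 of the 83 listed symbols matched a gene ID. Complex II, which links the citric acid cycle to the chain, held the largest. SDHB, its iron-sulphur subunit, was at 73.8, 64.7 and 63.6 CPM in the primed libraries and 358, 388 and 362 CPM in the naive ones and rose by 2.46 ± 0.11 (adjusted p = 9.6e-11). SDHA, its flavoprotein, was at 43.6, 43.3 and 43.9 CPM (primed) and 150.0, 170.0 and 174 CPM (naive) and rose by 1.92 ± 0.11 (adjusted p = 6.6e-10), and SDHC, a membrane anchor, was not called (adjusted p = 0.504). In complex I, 20 of 23 subunits rose, led by NDUFB4 from 111 ± 13.1 to 258 ± 6.53 CPM. UQCRFS1, the Rieske protein of complex III, was at 101 ± 0.827 CPM (primed) and 259 ± 16.9 CPM (naive) and rose by 1.36 ± 0.07. In complex IV only 4 of 16 listed genes were tested, of which 2 rose, with a median of -0.05. Of 16 listed ATP synthase genes 5 were tested, and all 5 rose. Of 50 mitochondrial ribosomal proteins 41 rose, MRPS18B the most (33.9 ± 3.15 to 110.0 ± 13.3 CPM), and 1 fell, MRPL40 (48 ± 1.79 to 34.4 ± 1.03 CPM), with 2 falls without primed replicate 1, and 3 of the rises passed the 2-fold threshold. Of 32 SLC25 carriers, most of which bring metabolites across the inner mitochondrial membrane, 11 rose and 14 fell, with a median of -0.17. The rises of SLC25 carriers numbered 7 without any one of primed replicates 1 and 3 and naive replicates 1 and 2.

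Pyruvate entry and the citric acid cycle changed in the same direction for most members, with 17 of 24 higher and 6 lower. MPC1, a subunit of the carrier that brings pyruvate into mitochondria, was at 35.4, 37.9 and 34.8 CPM in the primed libraries and 253, 226 and 217 CPM in the naive ones and rose by 2.69 ± 0.15 (adjusted p = 4.9e-10). SUCLA2, of the ATP-forming succinyl-CoA synthetase, was at 30.6, 27.1 and 25.2 CPM (primed) and 127, 125 and 110.0 CPM (naive) and rose by 2.13 ± 0.11. PDHB and DLAT, subunits of pyruvate dehydrogenase, rose from 164 to 385 and from 124 to 309.9 CPM by group means. PDK1, a kinase that turns pyruvate dehydrogenase off, also rose, from 19.3, 18.9 and 20.3 to 123, 102 and 96.2 CPM (2.46 ± 0.14, adjusted p = 7.03e-10). The falls included enzymes that make NADPH or act in the cytosol. IDH2, the mitochondrial NADP isocitrate dehydrogenase, was at 269, 215 and 210.0 CPM in the primed libraries and 42.7, 57.9 and 52.7 CPM in the naive ones and fell by 2.18 ± 0.14 (adjusted p = 2.84e-09). ME1, the cytosolic malic enzyme, fell from 51.2 ± 4.62 to 13.2 ± 6.61 CPM and ACO1, the cytosolic aconitase, from 215 ± 2.24 to 115 ± 13.7 CPM.

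Glycolysis genes moved both ways, with 11 of 26 genes higher (42.3%) and 6 lower (23.1%), and 7 higher without naive replicate 2. HK2, the hexokinase bound to mitochondria, was at 33.8, 42.7 and 50.4 CPM in the primed libraries and 352, 457 and 428 CPM in the naive ones and rose by 3.29 ± 0.34 (adjusted p = 9.85e-07). LDHC, the germ cell lactate dehydrogenase, was at 3.06, 3.27 and 3.54 CPM (primed) and 45.3, 41.5 and 51.9 CPM (naive) and rose by 3.81 ± 0.4 (adjusted p = 6.02e-07). ENO2, the neuronal enolase, was at 177, 105 and 85.2 CPM (primed) and 6.24, 12.3 and 11.6 CPM (naive) and fell by 3.61 ± 0.5 (adjusted p = 2.15e-05). The bifunctional enzymes that set the level of fructose 2,6-bisphosphate moved apart, PFKFB3 falling from 47.9, 50.4 and 75.1 to 5.38, 4.65 and 4.76 CPM and PFKFB4 rising from 9.52, 11.1 and 10.6 to 20.7, 34.3 and 35.1 CPM. GAPDH fell by 0.74 ± 0.15, from 1712 ± 136 to 1027 ± 107 CPM, and PKM was not called (adjusted p = 0.0894). PKM was called lower without naive replicate 2 (adjusted p = 0.0493), with DESeq2 size factors (0.049), with only the 6 N40 libraries (0.0173), with a replicate block in them (0.0199) and with DESeq2 as the test (0.0358). In the gluconeogenesis and inositol list 5 of 10 genes rose and 3 fell. SORD, which oxidises sorbitol to fructose, was at 43, 29.1 and 31.8 CPM in the primed libraries and 1290, 935 and 1090 CPM in the naive ones and rose by 5.0 ± 0.27 (adjusted p = 6.62e-10). KHK, which phosphorylates fructose, rose from 3.94 ± 1.03 to 20.9 ± 7.72 CPM, and MIOX, which opens the ring of inositol, from 0.138, 0.0259 and 0.0272 to 272, 103 and 144 CPM. The rise of MIOX was 11.34 with all libraries and 12.48 without primed replicate 1. ISYNA1, which makes inositol, fell from 456 ± 13.5 to 169 ± 19 CPM, and the muscle glycogen phosphorylase PYGM, of another list, from 40.6 ± 5.72 to 5.92 ± 1 CPM.

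Fatty acid oxidation had 12 rises and 9 falls among 29 genes, shares of 41.4% and 31% near the background. CPT1A, the gate for entry of long fatty acids into mitochondria, was at 0.614, 0.375 and 0.733 CPM in the primed libraries and 23.8, 25 and 25.9 CPM in the naive ones and rose by 5.44 ± 0.61 (adjusted p = 1.98e-06), and the carnitine carrier SLC25A20 rose from 19.1 ± 1.42 to 70.2 ± 0.37 CPM. ACADM, the medium-chain dehydrogenase, rose from 30.2 to 72.6 CPM and the electron acceptor ETFB from 51.9 to 149 CPM. ECHS1, the next enzyme of the cycle, fell from 113, 83.6 and 83.7 to 36.6, 36.1 and 37.7 CPM (1.34 ± 0.15 on the log2 scale), and ACSL4, which activates arachidonic acid, fell from 127 ± 8.67 to 29.4 ± 4.4 CPM. Cholesterol genes had 11 rises and 4 falls among 21, with INSIG1, a sterol sensor, going from 25.3 to 86.3 CPM.

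Amino acid metabolism leaned lower. In the serine, glycine and folate list 16 of 28 genes fell and 8 rose. MTHFD2, the mitochondrial folate enzyme of growing cells, was at 181, 256 and 217 CPM in the primed libraries and 35.5, 38.7 and 40.6 CPM in the naive ones and fell by 2.51 ± 0.18 (adjusted p = 6.82e-09). PSAT1, of serine synthesis, fell from 357 ± 121 to 94.7 ± 10.5 CPM and PHGDH, its first enzyme, from 378 ± 67 to 219 ± 42.6 CPM. GLDC, the decarboxylase of the glycine cleavage system, was at 197, 168 and 195 CPM in the primed libraries and 699, 736 and 737 CPM in the naive ones and rose by 1.95 ± 0.17 (adjusted p = 5.6e-08), and AMT, its aminomethyltransferase, was at 58.7, 67 and 63.5 CPM (primed) and 240.0, 190.0 and 231 CPM (naive) and rose by 1.8 ± 0.1. Amino acid breakdown and the urea cycle had 16 falls and 8 rises among 30 genes. ASS1, which makes argininosuccinate, was at 1250, 1240 and 1120 CPM in the primed libraries and 124, 146 and 184 CPM in the naive ones and fell by 2.99 ± 0.18 (adjusted p = 1.33e-09). GLUL, glutamine synthetase, was at 235, 194 and 175 CPM (primed) and 42.7, 17.4 and 24 CPM (naive) and fell by 2.84 ± 0.28. Among redox and iron genes the catalase CAT fell from 69.3, 48.1 and 46.8 to 10.1, 10.7 and 10.3 CPM and the ferritin light chain FTL from 2213 ± 134 to 588 ± 118 CPM, while the transferrin receptor TFRC rose from 469 ± 23.1 to 951 ± 33.7 CPM and the superoxide dismutase SOD1 from 602 ± 8.9 to 1382 ± 247 CPM.

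**Figure D3:**
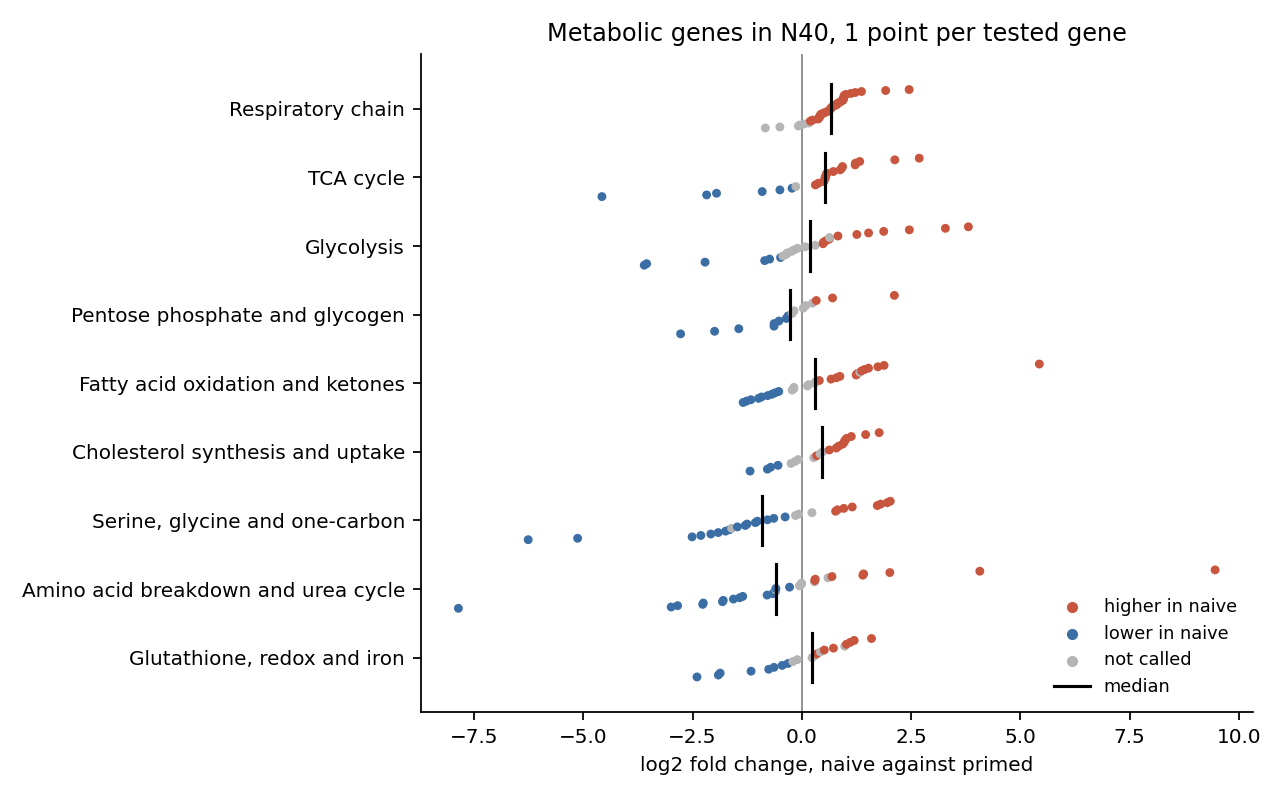
Log2 fold change of each tested gene of 9 metabolic lists in N40, naive against primed, with red points higher, blue points lower and grey points not called at an edgeR adjusted p under 0.05, and a black bar at the median. Respiratory chain genes form a narrow band right of 0, while the serine, glycine and folate list and the amino acid list have medians below 0.

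Signalling pathways held changes in both directions, as did all genes with a symbol (35.4% higher and 31.9% lower). In the WNT list 14 of 51 genes rose (27.5%) and 17 fell (33.3%), with the falls near that background. Among 12 receptors 6 fell and 0 rose. ROR1, a receptor for WNT5 ligands, was at 49.5, 48.9 and 53.1 CPM in the primed libraries and 7.53, 3.43 and 3.92 CPM in the naive ones and fell by 3.35 ± 0.22 (adjusted p = 4.04e-09), and the co-receptor LRP5 fell from 165 ± 7.76 to 56.3 ± 9.27 CPM. SFRP2, a secreted WNT antagonist, was at 715, 674 and 641 CPM (primed) and 90.3, 56 and 69.5 CPM (naive) and fell by 3.23 ± 0.33 (adjusted p = 8.13e-07). The ligand WNT5B was at 2.22, 0.983 and 0.883 CPM in the primed libraries and 41.5, 24.1 and 24.9 CPM in the naive ones and rose by 4.46 ± 0.56 (adjusted p = 5.49e-06). SP8, a zinc finger factor downstream of WNT in limb and neural tissue, was at 0.451, 1.26 and 0.625 CPM (primed) and 81, 87.1 and 82.2 CPM (naive) and rose by 6.74 ± 1.05 (adjusted p = 6.9e-05). The other primed groups averaged 8.79 (No.40), 40.2 (DSY127) and 38.5 CPM (DSY-c2) for SP8. CTNNB1, the effector beta-catenin, fell from 521 ± 15.8 to 361 ± 8.47 CPM (0.53 ± 0.15).

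In the TGF-beta family 11 of 47 genes rose (23.4%) and 17 fell (36.2%), with the falls near the background. NODAL, the ligand that patterns the epiblast, was at 12.6, 18.3 and 27.2 CPM in the primed libraries and 171, 153 and 150.0 CPM in the naive ones and rose by 3.03 ± 0.9 (adjusted p = 0.00931). Other primed groups had NODAL means of 96.9 (No.40), 74.9 (DSY127) and 180 CPM (DSY-c2). GDF3, a ligand that pairs with NODAL, was at 188, 232 and 266 CPM (primed) and 905, 890.0 and 919 CPM (naive) and rose by 1.98 ± 0.29 (adjusted p = 2.32e-05). Extracellular modulators fell in 6 of 12 cases. LTBP1, which stores latent TGF-beta in the matrix, was at 658, 535 and 546 CPM in the primed libraries and 30.4, 20.6 and 26.3 CPM in the naive ones and fell by 4.49 ± 0.19 (adjusted p = 5.52e-11), and FSTL1, a BMP-binding protein, fell from 1325 ± 32.7 to 462 ± 39.4 CPM. The rises of NODAL and GDF3 were each free of overlap between groups, as held for 71.0% of tested genes with a symbol.

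The FGF and MAPK list was even, with 11 rises and 11 falls among 37 (29.7% each), near the background. FGFR1, the main FGF receptor of primed cells, fell from 668, 559 and 578 to 239, 244 and 284 CPM (1.23 ± 0.17, adjusted p = 7.3e-06), and SPRY1, a feedback inhibitor that FGF signalling induces, from 7.25, 7.56 and 13.7 to 0.772, 1.39 and 1.21 CPM (3.08 ± 0.33). The ERBB receptors moved apart, ERBB2 falling from 358 ± 30.7 to 139.7 ± 21.5 CPM and ERBB3 rising from 297 ± 17.4 to 675 ± 56 CPM. In the Hippo list 12 of 24 genes fell, and the 2 rises became 4 without primed replicate 3. CCN1, a matricellular target of YAP, was at 606, 1190 and 422 CPM in the primed libraries and 11.4, 2.47 and 3.78 CPM in the naive ones and fell by 6.98 ± 0.81 (adjusted p = 4.29e-06), and its log2 change without naive replicate 1 was -7.97. Primed means of CCN1 elsewhere were lower, at 166 (No.40), 185 (DSY127) and 171 CPM (DSY-c2) against 740 CPM in primed N40. YAP1 itself, the coactivator, was at 107, 124 and 158 CPM (primed) and 149, 120.0 and 124 CPM (naive) and was not called (adjusted p = 0.934). Its partners TEAD1, TEAD2 and TEAD3 fell by 0.77, 1.2 and 1.34, and TEAD4 was not called (adjusted p = 0.863).

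Notch and Hedgehog genes moved both ways. In Notch 7 rose and 7 fell of 21 (33.3% each), near the background. The ligand JAG1 was at 16.4, 20.9 and 25.5 CPM in the primed libraries and 120.0, 97.5 and 94.1 CPM in the naive ones and rose by 2.31 ± 0.39 (adjusted p = 0.000126), and the ligand DLL1 rose from 1.88, 1.45 and 2.01 to 8.9, 22.4 and 15.8 CPM. DLL3, a ligand family member that inhibits Notch in the same cell, fell from 36.6, 35.3 and 32.2 to 4.54, 4.1 and 3.82 CPM, and the receptor NOTCH3 from 78.1 ± 5.56 to 22.5 ± 11.4 CPM. In Hedgehog 7 of 16 fell and 4 rose. SMO, the signal transducer that works in the cilium, was at 44.9, 48 and 49.8 CPM in the primed libraries and 11.9, 8.68 and 12.5 CPM in the naive ones and fell by 2.11 ± 0.18 (adjusted p = 5.12e-08), and the co-receptor BOC fell from 15.5, 21.6 and 20.5 to 0.772, 0.339 and 0.706 CPM. GLI1, the transcription factor that is the usual readout of the pathway, was at 12.9, 10.3 and 12.4 CPM (primed) and 47.8, 51 and 49 CPM (naive) and rose by 2.05 ± 0.2 (adjusted p = 2.17e-07). GLI2, its relative, fell from 16.9, 23.2 and 19.1 to 5.01, 3.31 and 6.05 CPM.

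Over the 20 genes of the insulin and IGF list 10 rose and 8 fell. INSR, the insulin receptor, was at 109, 105 and 117 CPM in the primed libraries and 9.45, 11.8 and 12.4 CPM in the naive ones and fell by 3.3 ± 0.17 (adjusted p = 2.3e-10). IGF1R, the IGF receptor, was at 29.2, 17.5 and 30.1 CPM (primed) and 2.51, 4.45 and 4.6 CPM (naive) and fell by 2.73 ± 0.23, and the adaptor IRS1 was at 14, 17.3 and 26 CPM (primed) and 0.49, 0.452 and 0.75 CPM (naive) and fell by 5.08 ± 0.35. IGFBP2, a secreted IGF carrier, was at 2120, 2000 and 1990 CPM (primed) and 345, 239 and 310.0 CPM (naive) and fell by 2.77 ± 0.18. For these 4 genes the naive libraries lay well below the primed ones. PIK3R1, a regulatory subunit of phosphoinositide 3-kinase, was at 1.37, 1.4 and 1.55 CPM (primed) and 23.5, 23 and 18.8 CPM (naive) and rose by 3.92 ± 0.48 (adjusted p = 3.47e-06), and the kinase AKT2 rose from 43.8 ± 1.72 to 95.8 ± 13.2 CPM.

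The JAK-STAT list rose in 14 of 25 genes and fell in 3, with a median of 0.66. IL6R, the interleukin 6 receptor, was at 7.22, 5.28 and 5.64 CPM in the primed libraries and 27.5, 35.9 and 44.1 CPM in the naive ones and rose by 2.57 ± 0.21 (adjusted p = 3.51e-08). The shared receptor IL6ST rose from 46 ± 9.06 to 84.5 ± 9.13 CPM, STAT3, its effector, from 94.6 ± 21.7 to 207 ± 40.4 CPM, and the kinase JAK2 from 10.9 ± 1.47 to 28.3 ± 1.71 CPM, while the LIF receptor LIFR was at 7.04, 4.65 and 4.83 CPM (primed) and 9.05, 3.72 and 3.73 CPM (naive) and was not called. Of 21 genes of VEGF, PDGF and related receptor signalling 9 fell (42.9%) and 4 rose (19.0%). FLT1, a VEGF receptor, was at 345, 327 and 343 CPM in the primed libraries and 4.31, 2.02 and 2.13 CPM in the naive ones and fell by 6.91 ± 0.3 (adjusted p = 9.8e-11). PDGFRB, a receptor of mural and fibroblast cells, was at 81.2, 133 and 117 CPM (primed) and 1.9, 1.34 and 1.21 CPM (naive) and fell by 6.22 ± 0.36 (adjusted p = 1.26e-09). For PDGFRB, naive replicate 1 was the highest naive library and lay far below the primed range. The ligand VEGFA rose from 6.58, 9.16 and 6.82 to 27.5, 54.8 and 46.1 CPM and KIT, the receptor of stem cell factor, from 8.2 ± 2.74 to 29.5 ± 5.24 CPM. VEGFA averaged 32.1 (No.40), 41.2 (DSY127) and 44.5 CPM (DSY-c2) in the other primed groups, near the naive N40 mean of 42.8 CPM. RARG, a retinoic acid receptor, was at 154, 169 and 168 CPM (primed) and 19, 14.8 and 16.8 CPM (naive) and fell by 3.28 ± 0.18 (adjusted p = 6.07e-10).

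Adhesion genes leaned lower with clear exceptions. Of 38 cadherin, desmosome, catenin and nectin genes 19 fell and 8 rose. CDH3, P-cadherin, was at 359, 522 and 557 CPM in the primed libraries and 52.6, 30.8 and 30.0 CPM in the naive ones and fell by 3.67 ± 0.23 (adjusted p = 2.88e-09). CDH12, a neuronal cadherin, was at 1.5, 0.673 and 1.07 CPM (primed) and 31.7, 54.5 and 51.3 CPM (naive) and rose by 5.4 ± 0.51 (adjusted p = 2.03e-07). CDH1, E-cadherin, was at 570.0, 499 and 564 CPM (primed) and 347, 404 and 393 CPM (naive), lower by 0.51 with an adjusted p of 0.0339, and the call was lost without naive replicate 1 (0.0644) or naive replicate 3 (0.062). Parts of the desmosome plaque moved apart. DSP, desmoplakin, was at 513, 662 and 641 CPM (primed) and 1790, 2130 and 1860 CPM (naive) and rose by 1.67 ± 0.15, while PKP4, a plakophilin, was at 283, 294 and 276 CPM (primed) and 34.1, 50.5 and 44.7 CPM (naive) and fell by 2.72 ± 0.11. CTNND1, p120 catenin, rose from 399.9 ± 28.6 to 1024 ± 80.9 CPM and CTNNA1, alpha-catenin, fell from 749.6 ± 13.4 to 392 ± 25.1 CPM. Of 30 tight and gap junction genes 14 fell and 7 rose. CLDN3, a claudin, fell from 45, 55.6 and 71.1 to 7.68, 4.78 and 6.01 CPM and the scaffold CGN, cingulin, from 109, 170.0 and 176 to 20.2, 21 and 20.4 CPM, while OCLN, occludin, rose from 45.8, 52 and 56.4 to 138, 159 and 162 CPM. Primed means of CLDN3 elsewhere were lower, at 14.8 (No.40), 12.7 (DSY127) and 15.4 CPM (DSY-c2) against 57.2 CPM in primed N40.

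Matrix genes and their receptors leaned lower. Of 23 integrin genes 14 fell (60.9%) and 3 rose, of 23 laminin and basement membrane genes 12 fell and 4 rose, and of 40 collagen chains 23 fell (57.5%) and 6 rose. ITGB5, which pairs with ITGAV to bind vitronectin, was at 137, 189 and 203 CPM in the primed libraries and 6.86, 8.86 and 8.26 CPM in the naive ones and fell by 4.46 ± 0.24 (adjusted p = 6.25e-10). ITGAV fell from 72.8 ± 4.54 to 26.7 ± 2.62 CPM and ITGB1, the beta chain shared by most matrix integrins, from 642 ± 28.2 to 355 ± 51.8 CPM. COL4A1, the network collagen of basement membranes, was at 1110, 1250 and 1180 CPM in the primed libraries and 92.2, 78 and 64.5 CPM in the naive ones and fell by 3.92 ± 0.4 (adjusted p = 9.47e-07), and COL4A2, its partner chain, was at 476, 480.0 and 476 CPM (primed) and 60.9, 59.3 and 53 CPM (naive) and fell by 3.05 ± 0.37. Laminin alpha chains moved apart. LAMA1, the embryonic alpha chain, was at 247, 246 and 306 CPM in the primed libraries and 13.7, 5.77 and 5.61 CPM in the naive ones and fell by 4.99 ± 0.48, and its log2 change without naive replicate 1 was -5.64. LAMA4 was at 9.77, 16.8 and 14.7 CPM (primed) and 251, 155 and 154 CPM (naive) and rose by 3.76 ± 0.95 (adjusted p = 0.00341), and LAMA3 was at 10.2, 7.88 and 9.74 CPM (primed) and 33.6, 46.5 and 54.8 CPM (naive) and rose by 2.28 ± 0.27. In the other primed groups LAMA4 averaged 177 (No.40), 193 (DSY127) and 189 CPM (DSY-c2), near the naive N40 mean of 187 CPM. The shared chains LAMB1 and LAMC1 were not called (adjusted p = 0.319 and 0.127). When only the 6 N40 libraries were fitted, LAMB1 was called lower (-0.7, adjusted p = 0.000665, or -0.69 and 0.00357 with a replicate block) and LAMC1 higher (0.31, adjusted p = 0.0267).

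The collagens that rose included fibroblast genes that were highest in naive replicate 1. COL3A1, a fibrillar collagen, was at 0.225, 0.505 and 0.326 CPM in the primed libraries and 153, 40.8 and 42.3 CPM in the naive ones, and rose by 7.8 with and 6.79 without naive replicate 1. Other primed groups had COL3A1 means of 148 (No.40), 205 (DSY127) and 3.33 CPM (DSY-c2). COL1A2 was at 14.7, 8.48 and 8.75 CPM (primed) and 79.4, 30.8 and 26.7 CPM (naive) and was called (adjusted p = 0.0117), but not without naive replicate 1 (0.0964), primed replicate 2 (0.0527) or primed replicate 3 (0.0512). COL1A1, which forms type I collagen with COL1A2, went the other way, at 761, 595 and 492 CPM (primed) and 268, 130.0 and 134 CPM (naive), and fell by 1.8 ± 0.42. Of 14 fibroblast markers 5 rose and 6 fell, and the rises became 1 without naive replicate 1, 2 without primed replicate 2 and 2 and 3 without primed replicates 3 and 1. Their part in the collagen changes was not tested. Semaphorins, plexins and ADAM proteases leaned lower, with 17 of 27 semaphorins and plexins lower and 5 higher, and 23 of 36 ADAM and ADAMTS proteases lower. SEMA3F, a secreted repellent, fell from 101, 107 and 99.1 to 11, 15.6 and 15.1 CPM, and ADAMTS19 from 152, 151 and 166 to 30.1, 17.4 and 16.4 CPM. Eph receptors moved apart. EPHA1 was at 101, 106 and 134 CPM in the primed libraries and 10.9, 14 and 15.4 CPM in the naive ones and fell by 3.08 ± 0.17 (adjusted p = 4.2e-10), and EPHA4 was at 3.73, 4.04 and 6.48 CPM (primed) and 138, 148 and 208 CPM (naive) and rose by 5.11 ± 0.95 (adjusted p = 0.000329). The other primed groups averaged 31.8 (No.40), 46.4 (DSY127) and 67.3 CPM (DSY-c2) for EPHA4.

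**Figure D4:**
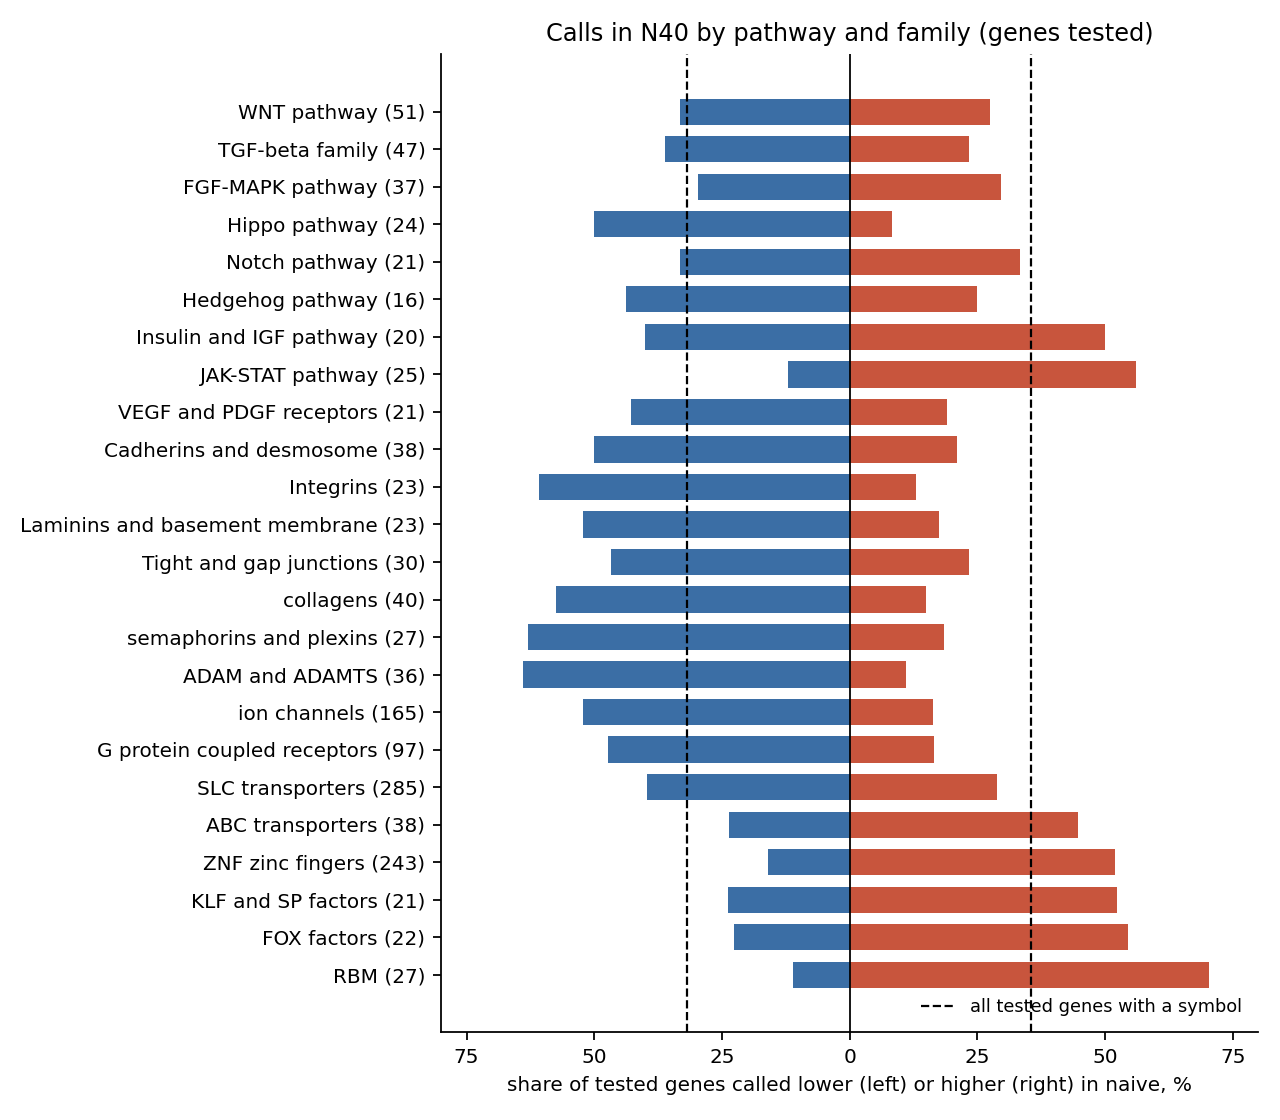
Share of tested genes called higher (red, right) or lower (blue, left) in naive N40 cells for 24 pathways and families, with the number tested in parentheses. Dashed lines mark the same shares over all tested genes with a symbol, 35.4% higher and 31.9% lower. Integrins, ADAM and ADAMTS proteases, semaphorins and plexins, collagens and ion channels reach past the line on the lower side, and zinc finger, RBM and JAK-STAT genes past the line on the higher side.

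Among transcription factor families, zinc finger genes leaned higher, with 126 of 243 ZNF genes higher (51.9%) and 39 lower (16%) at a median of 0.39. ZNF296, a zinc finger factor of pluripotent and germ cells, was at 11 ± 1.41 CPM in the primed libraries and 91.7 ± 7.85 CPM in the naive ones and rose by 3.06 ± 0.18 (adjusted p = 1.1e-09), and ZNF462 fell from 92.6, 118 and 112 to 17.4, 14.5 and 18.7 CPM (2.67 ± 0.19). Of 21 KLF and SP factors 11 rose and 5 fell. KLF5, a factor of epithelial and naive pluripotent cells, was at 10.6, 14.7 and 18.7 CPM in the primed libraries and 195, 261 and 254 CPM in the naive ones and rose by 4.01 ± 0.45 (adjusted p = 2.65e-06), KLF17 rose from 0.508 to 115 CPM, and KLF7, a neuronal family member, fell from 17.9, 19.3 and 31.7 to 2.24, 2.01 and 1.24 CPM. Of 22 forkhead factors 12 rose, FOXP4 from 15.9 ± 1.84 to 72.7 ± 8.38 CPM, and 5 fell, or 3 without naive replicate 3. Homeobox genes outside the HOX clusters had 25 rises (37.9%) and 19 falls (28.8%) among 66, near the background. TLX1, a homeobox gene known from spleen development, had no count in primed and 15.2, 20.9 and 31.9 CPM in naive libraries, at least 1749-fold higher by the same floor of 3 counts. CUX2, a cut homeobox factor of neurons, fell from 18.5, 22.9 and 23.8 to 3.45, 2.16 and 3.11 CPM. Of 40 nuclear receptors 15 rose (37.5%) and 14 fell (35.0%), near the background. NR3C1, the glucocorticoid receptor, was at 1.64, 2.64 and 2.84 CPM in the primed libraries and 38.6, 40.9 and 33 CPM in the naive ones and rose by 3.98 ± 0.32 (adjusted p = 2.52e-08).

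Ion channels and receptors leaned lower. Of 165 ion channel genes 86 fell (52.1%) and 27 rose, with a median of -1.24, and of 97 G protein coupled receptors 46 fell and 16 rose. SCN9A, a voltage-gated sodium channel of sensory neurons, was an exception at 0.376, 0.0518 and 0.489 CPM in the primed libraries and 40.3, 23.4 and 27.7 CPM in the naive ones (6.64 ± 0.49, adjusted p = 1.59e-08). KCNN4, a calcium-activated potassium channel of blood and epithelial cells, rose from 0.939, 0.401 and 0.828 to 21.2, 10.4 and 11.1 CPM. TRPC4, a cation channel, was at 98.9, 95.8 and 73.1 CPM in the primed libraries and 2.29, 0.41 and 0.922 CPM in the naive ones and fell by 6.21 ± 0.61, with a log2 change of -7.16 without naive replicate 1. Of 285 solute carriers 82 rose (28.8%) and 113 fell (39.6%). SLC7A3, which imports arginine and lysine, was at 858, 718 and 665 CPM in the primed libraries and 49.8, 27.4 and 39.1 CPM in the naive ones and fell by 4.27 ± 0.41 (adjusted p = 4.68e-07). SLCO4C1, an organic anion carrier of the kidney, was at 1.58, 0.893 and 1.82 CPM (primed) and 49.5, 45.3 and 51 CPM (naive) and rose by 5.09 ± 0.44 (adjusted p = 7.69e-08). Of 38 ABC transporters 17 rose and 9 fell, ABCG2, a drug efflux pump of stem cells, rising from 5.95 ± 0.807 to 27.5 ± 10.8 CPM and ABCC4, an exporter of cyclic nucleotides, falling from 101 ± 10.5 to 8.27 ± 3.02 CPM.

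RBM and replication origin genes leaned higher. Of 27 RBM genes 19 rose and 3 fell, and of 18 MCM and ORC genes, which license replication origins, 14 rose. ORC2, of the origin recognition complex, was at 6.59, 5.47 and 7.21 CPM in the primed libraries and 44.3, 43 and 45.7 CPM in the naive ones and rose by 2.79 ± 0.17 (adjusted p = 1.88e-09). The D-type cyclins moved apart, as CCND2 was at 47, 63 and 80.8 CPM (primed) and 5.15, 2.37 and 2.78 CPM (naive) and fell by 4.21 ± 0.29 and CCND3 was at 60.2, 63.6 and 63.5 CPM (primed) and 379, 344 and 386 CPM (naive) and rose by 2.57 ± 0.17. Of 23 germ cell markers 15 rose and 2 fell, the falls numbering 4 without naive replicate 1 and 1 without naive replicate 3. TFAP2C, a factor of germ cells, trophectoderm and naive cells, was at 27.7, 27.8 and 22.4 CPM in the primed libraries and 192, 233 and 240.0 CPM in the naive ones and rose by 3.09 ± 0.26 (adjusted p = 6.08e-08). TDRD1, a Tudor protein of the piRNA pathway, rose from 19, 17.8 and 20.6 to 64.7, 58.1 and 62.2 CPM. DDX4, the defining helicase of later germ cells, was at 2.13, 0.802 and 1.11 CPM (primed) and 16.8, 2.49 and 4.15 CPM (naive), and its rise was 2.53 with and 1.2 without naive replicate 1. Of 13 trophectoderm markers 8 rose and 2 fell, or 1 without naive replicate 2 or naive replicate 3. KRT7, a keratin that defines trophoblast, was at 5, 7.48 and 5.69 CPM (primed) and 71.2, 43.7 and 73.5 CPM (naive) and rose by 3.37 ± 0.75 (adjusted p = 0.00132). Other primed groups had KRT7 means of 19.5 (No.40), 86.9 (DSY127) and 87.7 CPM (DSY-c2). CDX2, the trophectoderm and gut factor, had no count in primed libraries and was at 0.55, 0.509 and 0.288 CPM in the naive ones. It was called higher (adjusted p = 0.00232), at least 34.5-fold by the same floor, at a level that stayed low.

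The change of each gene was compared with that in DSY-c2 by the interaction term of the same fit, which called 2716 of 17957 genes (15.1%), with N40 minus DSY-c2 above 0 for 1539 (8.57%) and below 0 for 1177 (6.55%). Among genes with a symbol the shares were 17.4% in all, 9.7% above 0 and 7.69% below 0. GATA6, which rose in N40, had a lower mean in naive than in primed DSY-c2 cells. It was at 60.6 ± 87.7 CPM in the primed group and 9.45 ± 6.78 CPM in the naive group (log2 -2.68, not called, adjusted p = 0.106), with an SD above the mean in the primed group, and the difference from N40 was 11.35 ± 2.48 (adjusted p = 0.00822). The rise of HNF4A was not shown to differ (difference 5.31 ± 1.72, adjusted p = 0.053). TLX1, which reached 15.2 to 31.9 CPM in naive N40 cells, had means of 0.0397 ± 0.0344 CPM in the primed and 0.493 ± 0.0884 CPM in the naive DSY-c2 libraries, and the difference was called (adjusted p = 0.00147). Its fitted size has no primed N40 count to rest on and is not a bound.

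Genes that fell in N40 with a smaller change in DSY-c2 included CGN, CAT and ASS1. CGN was at 102 ± 18 and 97.3 ± 16 CPM there, a difference of -2.82 ± 0.25 (adjusted p = 6.23e-06), and CAT at 57.5 ± 1.4 and 53.8 ± 4.84 CPM, a difference of -2.31 ± 0.19 (adjusted p = 3.08e-06). ASS1 went from 530.3 ± 87.1 to 323 ± 43.9 CPM in DSY-c2, a difference of -2.27 ± 0.24 (adjusted p = 3.07e-05). Conversely CFAP54, the exception among central pair genes, rose further in DSY-c2, from 0.754 ± 0.0934 to 53.8 ± 10.5 CPM (difference -4.34 ± 0.31, adjusted p = 1.19e-06). JAG1, which rose in N40, had DSY-c2 means of 93.2 to 63.2 CPM (log2 -0.56, adjusted p = 0.216, difference 2.87 ± 0.54, adjusted p = 0.00294), and DSP had means of 878 to 1063 CPM there (difference 1.39 ± 0.21, adjusted p = 0.000631). For DRC1, SDHB, INSR, CDH3 and FLT1 the adjusted p of the difference was 0.584, 0.18, 0.0971, 0.15 and 0.0375, so among these 5 a difference was called for FLT1 only.

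**Figure D5:**
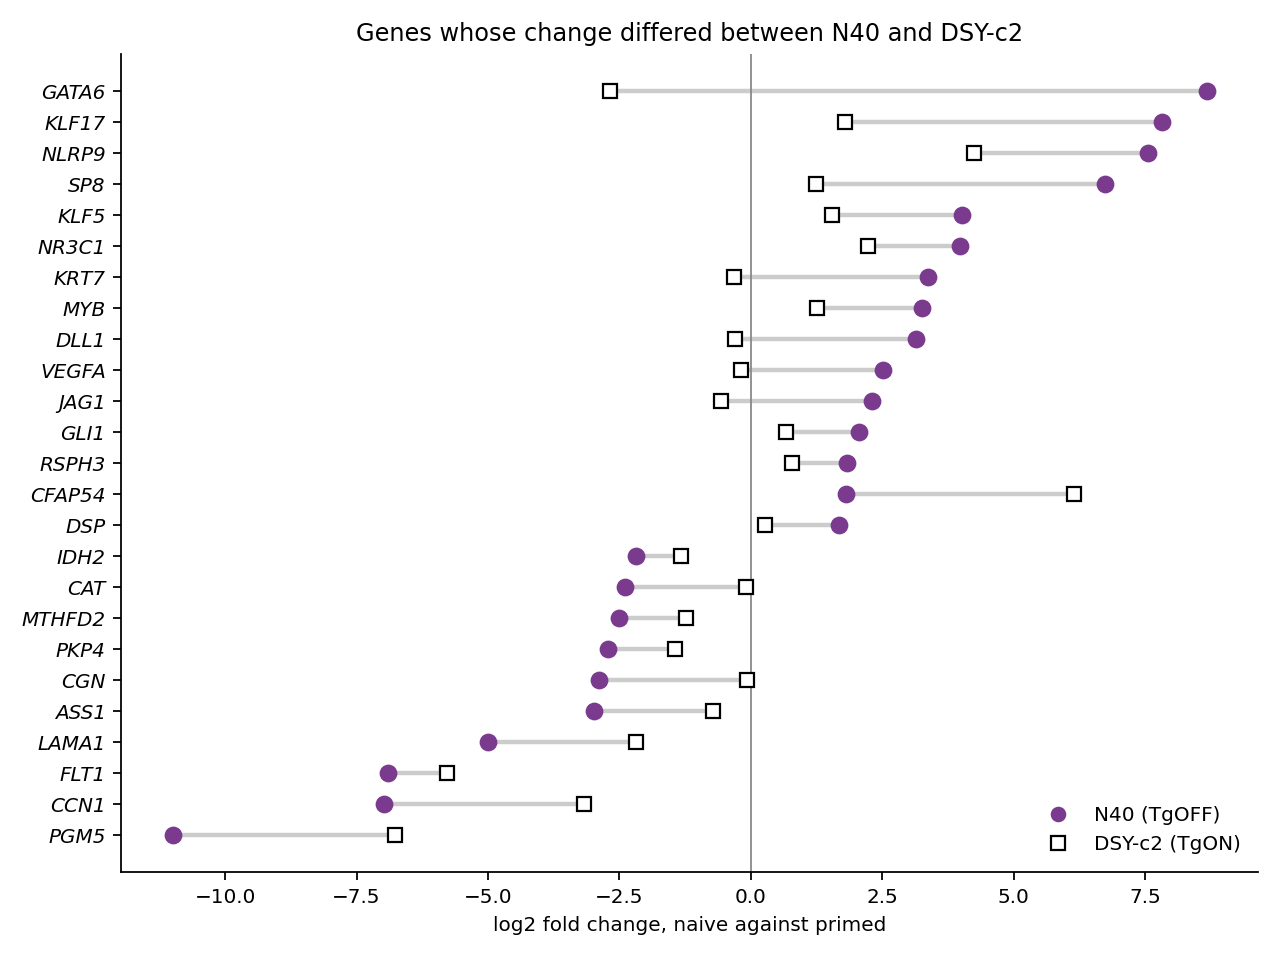
Log2 fold change, naive against primed, in N40 (filled circles, titled TgOFF) and DSY-c2 (open squares, titled TgON) for a selection of genes of the text whose change differed between the lines at an edgeR adjusted p under 0.05, ordered by the N40 value. GATA6, JAG1, DLL1, VEGFA and KRT7 lie right of 0 in N40 and left of 0 in DSY-c2, and of the plotted genes right of 0 in N40, CFAP54 alone lies further right in DSY-c2.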

How the data were processed

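RNA was extracted with RNeasy and made into stranded poly(A) libraries with a TruSeq kit, per the labels' protocols. The submitters' processing notes name Trim Galore 0.4.0, STAR 2.5.3a and featureCounts 1.5.2, and a genome build is not given in the sources used here. Values are raw counts per gene as deposited by the authors, in 2 run columns per library, which were summed. A further 6 columns of per-sample values matched no label and were not used. Even counts made up 67.4% of counts from 1 to 49 and 50.4% of counts of 500 or more, so both reads of a pair appear to be counted separately, and counting intervals and floors are optimistic. Symbols were matched for 12660 of 30811 gene IDs (41.1%).

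The 18 ESC libraries of 6 groups were fitted together in edgeR 4.0.16 (R 4.3.3, with limma 3.58.1) with its default filter on low counts, TMM scaling and the robust quasi-likelihood test, with the Benjamini-Hochberg adjusted p under 0.05 as the threshold and a test against a 2-fold change beside it. The SE is the log2 fold change divided by the square root of F. CPM uses TMM-scaled library sizes. On simulated counts of 17642 genes for this comparison, 66% of 2-fold and 95% of 4-fold changes were recovered, with 9 false among 170 calls. The simulation changed 100 well-counted genes by each fold and left the rest equal, while 61.0% of genes were called in the data. Its recovery and false calls may therefore differ from those of the data. DESeq2 1.42.0 served as an alternative, beside other scaling, filters, fewer libraries, single runs, halved counts, a replicate block and leaving out each library.

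The genes compared, the lists and the tests were chosen with earlier results of these data known, and the name patterns of gene families were tightened after a first look at their matches. Genes were named by rule: the 15 largest rises and falls without overlap, up to 6 called members each way per list (3 per role), the most abundant member of each role, members of the endoderm and axoneme lists, and members of small counts. POU5F1, NANOG, TBXT, PAX6, DCN, KIF3A, SDHC, PHGDH, TEAD4, LIFR, CTNNA1, ITGB1, LAMB1, LAMC1, SEMA3F, ADAMTS19 and the genes singled out in the closing observations were named outside the rule after their values were seen.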

Additional observations from a re-analysis of the deposited data

Results flagged for a closer look

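The naive change differed between N40 and DSY-c2 by the interaction test (edgeR, adjusted p under 0.05) for 2716 genes in all and for the genes named here, each given with its N40 minus DSY-c2 difference in log2 fold change. The line and the TgON or TgOFF label cannot be told apart in these differences. Each difference takes in the primed as well as the naive groups, and which of them set it was not tested. SP8 had naive means of 83.5 (N40) and 90.7 CPM (DSY-c2) and primed means of 0.777 and 38.5 CPM. CFAP54 had naive means of 4.26 (N40) and 53.8 CPM (DSY-c2) and primed means of 1.21 and 0.754 CPM. Among genes that rose in N40, the difference was positive for NANOG (0.95), COL3A1 (4.51), KRT7 (3.69), GATA6 (11.35), NLRP9 (3.31), OLIG3 (5.1), ANPEP (1.63), RSPH3 (1.04), MYB (2.0), DYNC2H1 (0.67), PDK1 (0.85), LDHC (2.3), SORD (1.07), MIOX (5.02), SP8 (5.51), JAG1 (2.87), DLL1 (3.45), GLI1 (1.38), PIK3R1 (2.08), VEGFA (2.7), DSP (1.39), EPHA4 (4.81), KLF5 (2.47), KLF17 (6.03), FOXP4 (1.08), TLX1 (9.92), NR3C1 (1.75), SLCO4C1 (2.25), ABCG2 (1.44), TFAP2C (1.24), TDRD1 (1.53), BTK (2.67) and ADGRE1 (3.04). It was negative, with a rise in N40 that was smaller than the change in DSY-c2, for CFAP54 (-4.34), DLAT (-0.54), AMT (-0.77), TFRC (-0.76), ERBB3 (-1.16) and IL6ST (-0.69). Among genes that fell in N40, the difference was negative for PGM5 (-4.23), VTN (-0.95), RPGRIP1L (-0.8), MRPL40 (-0.94), IDH2 (-0.85), PFKFB3 (-1.49), MTHFD2 (-1.28), ASS1 (-2.27), CAT (-2.31), FTL (-0.94), LTBP1 (-1.3), SPRY1 (-1.83), CCN1 (-3.79), DLL3 (-1.22), BOC (-3.06), FLT1 (-1.12), PKP4 (-1.28), CLDN3 (-1.46), CGN (-2.82), ITGB5 (-1.43), COL4A1 (-2.21), COL4A2 (-1.89), LAMA1 (-2.81) and EPHA1 (-0.98). It was positive, with the fall in N40 smaller than the change in DSY-c2, for ROR1 (1.16), GLI2 (1.52) and CUX2 (1.03). Genes not called in N40 whose change still differed from that in DSY-c2 were TBXT (4.72), CXCR4 (4.86) and SDHC (-0.73). For TLX1, which had no count in primed N40 libraries, the size depends on the prior count and is not a bound.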

How the results depend on the processing

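Of 10952 genes called, leaving out each library in turn gave 10114 to 10313, and the settings tried gave 8776 (replicate block) to 11215 (DESeq2 as the test). With DESeq2 size factors 48.6% of calls were higher, against 52.9% with TMM. Same-numbered libraries deviated from their group means with r of -0.0885, -0.0298 and -0.0305, so the numbers are not taken to pair the libraries, and no library correlated best with its own number. Under the replicate block in the 6 N40 libraries, the rises were 9 in the WNT list, 6 in the insulin and IGF list and 9 in the MCM and ORC family. The rises among axonemal genes were 3 in place of 5 under 4 settings. Of 114 list counts given, 90 stayed within 1.5 times the value given under all settings run. The test is limited by 3 libraries a group.

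YAP1 and TEAD4, neither called, changed sign. YAP1 was at -0.06 (DESeq2 size factors, and DESeq2 as the test), -0.09 (no low-count filter), -0.02 (at least 1 CPM in 3 libraries), -0.08 (only the 6 N40 libraries), -0.07 (replicate block), and from -0.19 to 0.10 with 1 library left out. TEAD4 was at -0.05 (DESeq2 size factors, and DESeq2 as the test), -0.08 (no filter, and replicate block), -0.01 (at least 1 CPM), -0.07 (6 libraries), and from -0.12 to 0.05 with 1 library left out. LIFR, not called, was at 0.18 with the first run column alone, and from -0.65 to 0.21 with 1 library left out. The cause was not tested. Genes not called that were called under other settings were, with only the 6 N40 libraries, CXCR4 (2.04, adjusted p = 0.00307), TBXT (-1.92, 0.00267), PDGFRA (1.32, 0.0284) and POU5F1 (-0.2, 0.0332). With a replicate block in them CXCR4 (0.0138) and TBXT (0.0158) were called, and with DESeq2 as the test CXCR4 (0.0383), TBXT (0.0274) and DCN (0.0483).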

Other observations

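Of 19 chemokine and interleukin genes, a few receptors included, 8 fell and 3 rose, and of 14 tumour necrosis factor receptors 8 fell and 3 rose, against 31.9% lower and 35.4% higher over genes with a symbol. The chemokine and interleukin falls numbered 2 under the replicate block and 2 among genes of at least 1 CPM in 3 libraries. Another 4 genes known from immune cells, which rose, were singled out after their values were seen and stand for no group. BTK, the tyrosine kinase of B cell receptor signalling, was at 3.68, 5.2 and 4.24 CPM in the primed libraries and 276, 369 and 363 CPM in the naive ones and rose by 6.26 ± 0.64 (edgeR adjusted p = 1.13e-06). PLCG2, a phospholipase that BTK activates, was at 6.31, 2.69 and 2.7 CPM (primed) and 28.3, 24.1 and 30.3 CPM (naive) and rose by 2.82 ± 0.36 (adjusted p = 5.04e-06). MILR1, an inhibitory receptor of mast cells, was at 0.2, 0.207 and 0.231 CPM (primed) and 14.9, 18.5 and 22.6 CPM (naive) and rose by 6.44 ± 0.53, and ADGRE1, the macrophage receptor also called F4/80, was at 0.2, 0.116 and 0.0543 CPM (primed) and 14.9, 17.5 and 15.8 CPM (naive) and rose by 6.99 ± 0.55. The groups did not overlap for any of the 4 genes, and naive replicate 1 was not the highest library for BTK, MILR1, ADGRE1 or PLCG2.

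Of 16 subunits and accessory proteins of the vacuolar proton pump, which acidifies lysosomes, 12 rose (75%) and 1 fell (2 without primed replicate 3), with a median of 0.53 and 3 rises past 2-fold. The family was counted after some of its values were seen. ATP6V1C2, a tissue-restricted C subunit, was at 2.92, 1.9 and 1.44 CPM in the primed libraries and 122, 96.7 and 84.5 CPM in the naive ones and rose by 5.6 ± 0.35 (adjusted p = 2.44e-09). The catalytic subunit ATP6V1A was at 169, 156 and 152 CPM (primed) and 310.0, 292 and 274 CPM (naive) and rose by 0.88 ± 0.07, and ATP6V1H, which couples the ring to the membrane part, was at 40.8, 49.3 and 50.3 CPM (primed) and 95.3, 79.5 and 74.6 CPM (naive) and rose by 0.83 ± 0.12. ATP6V1C2 moved further than the other two on the log2 scale.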
